A study of Homo sapiens with 3 samples.

Results

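The 10 noncoding genes described here, GAS5, SNHG1, SNHG5, SNHG6, SNHG8, SNHG12, SNHG15, SNHG16, ZFAS1 and EPB41L4A-AS1, are host genes of small nucleolar RNAs (snoRNAs) whose spliced RNAs are known to depend on translation for their turnover. They were picked by name and found by Entrez identifier among the 25702 genes of the deposited counts, and all 10 were among the 12879 genes that had at least 10 counts in at least 1 library. After 6 h with 100 nM pyrvinium, the exon counts of SNHG8 were 1.44-fold and those of GAS5 1.30-fold the level with DMSO, whereas SNHG5 and SNHG12 were at 0.999-fold and 0.968-fold. None of the 10 differed by 1.5-fold or more at either dose, beside 4.95% of all genes tested that were higher by that rule and 2.73% that were lower at 100 nM, and 2.35% and 1.41% at 50 nM, so that a count of 0 among 10 genes is near the background.

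A snoRNA host gene is transcribed by RNA polymerase II, and its snoRNAs are cut out of the introns after splicing. Box C/D snoRNAs (SNORD) guide 2′-O-methylation of ribosomal RNA and box H/ACA snoRNAs (SNORA) guide pseudouridylation, so that the introns serve ribosome production. The spliced exons of many noncoding hosts reach the cytoplasm, carry short open reading frames with stop codons upstream of exon junctions, and are degraded by nonsense-mediated decay (NMD) as they are translated. Several hosts begin with a 5′ terminal oligopyrimidine (TOP) sequence, as the mRNAs of ribosomal proteins do. When translation or NMD is blocked, such RNAs are known to accumulate.

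The cells were Molm13, 1 human acute myeloid leukemia line that carries an internal tandem duplication of FLT3, grown in RPMI with fetal bovine serum. They were exposed for 6 h to DMSO, the vehicle control, to 50 nM pyrvinium or to 100 nM pyrvinium, an anthelmintic compound, and 1 library was made per condition. The title of the higher-dose sample gives 100 nM, and its treatment text writes that dose without the prefix of the unit. None of the differences below therefore has a replicate check, and the intervals given with them cover counting error only.

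The libraries held 22677038 to 24075123 counts. All 10 myeloid markers were counted in every library, with 57 to 62 counts for ITGAM, the lowest, 7067 to 7768 for LYZ and 6304 to 11181 for FLT3. Of the 10 markers of other cell types, CD3E and EPCAM were at 0 throughout and PECAM1 had 156 to 191 counts. HBB had 16 counts in the 50 nM library and 0 in the others. CD3D had 26, 18 and 13 counts in the DMSO, 50 nM and 100 nM libraries, and its log2 difference at 100 nM was -1.03 (-2.14 to -0.05). In RNA of whole cultures, fewer cells of a type and less RNA per cell cannot be told apart. The dependence of the 10 RNAs on translation was not measured in these libraries.

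The start of the transcripts is shown first, because a TOP sequence lies there. The lines hold 15 bases before and 50 bases from the annotated start of the 8 genes found in the RefSeq promoter table (GRCh38.p14), in transcript direction, and capitals mark the longest run of C and T that begins with C between 10 bases before and 50 bases after the start. SNHG6 and SNHG15 were not among them. The annotated starts were not matched to the first counted exons, which are on hg19. A printed start, and the run found in it, may thus belong to another transcript than the one counted, for GAS5 as for the others.
GAS5 start, chr1:173868996-173869060, minus strand: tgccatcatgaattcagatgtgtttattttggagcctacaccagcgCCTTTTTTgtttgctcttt
ZFAS1 start, chr20:49278627-49278691, plus strand: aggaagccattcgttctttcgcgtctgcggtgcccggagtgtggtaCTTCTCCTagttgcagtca
SNHG5 start, chr6:85678684-85678748, minus strand: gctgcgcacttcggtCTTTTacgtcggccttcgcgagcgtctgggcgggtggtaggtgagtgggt
SNHG1 start, chr11:62855836-62855900, minus strand: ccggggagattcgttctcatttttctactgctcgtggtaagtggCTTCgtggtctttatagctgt
SNHG8 start, chr4:118278747-118278811, plus strand: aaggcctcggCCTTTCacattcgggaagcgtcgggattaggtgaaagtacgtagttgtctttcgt
SNHG12 start, chr1:28581824-28581888, minus strand: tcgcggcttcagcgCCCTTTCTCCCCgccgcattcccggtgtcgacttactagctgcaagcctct
SNHG16 start, chr17:76557749-76557813, plus strand: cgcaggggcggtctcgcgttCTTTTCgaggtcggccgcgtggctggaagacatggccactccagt
EPB41L4A-AS1 start, chr5:112160511-112160575, plus strand: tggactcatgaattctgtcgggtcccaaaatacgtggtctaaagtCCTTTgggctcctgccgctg

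A run of at least 6 bases within 10 bases before to 30 after the start was found in 3 of the 8 genes (37.5%), and in 28.2% of the 35116 promoters of that table. These 3 were SNHG8 and SNHG16, with runs of 6 bases, and SNHG12, with a run of 12 bases from the last base before the start. In this window the longest runs of SNHG5 and ZFAS1 were 5 bases long and began on the first base of the annotated transcript. The run of SNHG1 began there too and was 3 bases long. With the window drawn to 50 bases after the start, 5 of the 8 genes (62.5%) and 39.0% of all promoters held such a run, since GAS5 and ZFAS1 each had 8 pyrimidines from base 32. The annotated starts of ribosomal protein genes that host snoRNAs had a run of at least 6 in 16 of 22 cases (72.7%). The run of SNHG8 began 5 bases before the start, and only its last base lay in the annotated transcript. A run was counted wherever it began in the window, whereas a TOP sequence lies at the very start of the RNA. Whether any of these starts acts as a TOP sequence was not tested.

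The open reading frames are shown next, since a stop codon far upstream of an exon junction is what brings an RNA to NMD. On the exons that were counted (hg19), the frame of the first ATG ended more than 50 bases before at least 1 exon junction in all 10 genes. For ZFAS1 this frame runs across the annotated start printed above, so its ATG lies upstream of that start. Only 4 of the 5 counted introns of ZFAS1 began with GT and ended with AG. Its frame may therefore not be one that the annotated RNA holds. The frames of SNHG8 and EPB41L4A-AS1, among the genes with the largest differences, and of SNHG5 and SNHG12, with the lowest values, at or below 0, are printed with the start and the stop codon in capitals.
SNHG8 frame: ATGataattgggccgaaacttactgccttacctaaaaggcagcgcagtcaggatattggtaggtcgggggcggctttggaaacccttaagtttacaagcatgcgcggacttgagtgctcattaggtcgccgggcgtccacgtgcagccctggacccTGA
EPB41L4A-AS1 frame: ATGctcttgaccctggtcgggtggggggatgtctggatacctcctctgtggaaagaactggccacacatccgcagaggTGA
SNHG5 frame: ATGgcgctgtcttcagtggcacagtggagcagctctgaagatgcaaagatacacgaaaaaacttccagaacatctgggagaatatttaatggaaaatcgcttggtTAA
SNHG12 frame: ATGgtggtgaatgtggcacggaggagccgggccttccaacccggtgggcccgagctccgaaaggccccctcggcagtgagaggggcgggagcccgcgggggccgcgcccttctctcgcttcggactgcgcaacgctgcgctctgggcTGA

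The frame of SNHG8 held 52 codons before its stop, with 2 junctions more than 50 bases downstream. SNHG12 had 49 codons and 4 such junctions, SNHG5 had 35 codons and 2, and EPB41L4A-AS1 had 26 codons and 2. The frame of GAS5, not printed, held 50 codons and 5 such junctions. As all 10 genes had such a junction, its presence could not set genes with large and with low differences apart. Across the spliced transcripts of GENCODE 44 on GRCh37, 327 of 351 transcripts of the 10 genes (93.2%) had such a junction after the stop of the first ATG frame, compared with 79.6% of 52138 transcripts of long noncoding genes with a frame. GAS5, SNHG1 and SNHG5 account for 91, 79 and 87 of those transcripts. By gene the share ran from 71.4% for ZFAS1 to 100% for SNHG12 and EPB41L4A-AS1. The hosts and the long noncoding background were not matched for exon number, and a transcript with more exons has more junctions that can follow a stop.

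The introns were checked for the snoRNAs that give the genes their name. All 10 genes held at least 1 listed snoRNA in an intron, 34 in total, with no more than 1 per intron. GAS5, on chromosome 1 from 173833039 to 173837125, has 12 exons in 632 counted bases and hosts 10 SNORD genes. SNHG1, on chromosome 11 from 62619460 to 62623360, has 11 exons and hosts 8. SNHG12, on chromosome 1 from 28905050 to 28908366, hosts 4, of which 3 are of the H/ACA class. ZFAS1 on chromosome 20 and SNHG16 on chromosome 17 host 3 each, SNHG5 on chromosome 6 hosts 2, and SNHG6, SNHG8 (chromosome 4), SNHG15 (chromosome 7) and EPB41L4A-AS1 (chromosome 5) host 1 each. As examples, SNORD80 and SNORD44 of GAS5, SNORD31 of SNHG1 and SNORD50B of SNHG5 are printed (hg19) with the C box, TGATGA, within the first 25 bases and the D box, CTGA, within the last 15 bases in capitals.
SNORD80, chr1:173833971-173834041, minus strand: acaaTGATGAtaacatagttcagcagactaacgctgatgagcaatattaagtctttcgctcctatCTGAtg
SNORD44, chr1:173835106-173835166, minus strand: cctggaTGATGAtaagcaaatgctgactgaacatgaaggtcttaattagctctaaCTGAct
SNORD31, chr11:62620798-62620865, minus strand: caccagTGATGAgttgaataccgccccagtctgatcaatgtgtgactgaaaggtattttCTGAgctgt
SNORD50B, chr6:86387307-86387377, minus strand: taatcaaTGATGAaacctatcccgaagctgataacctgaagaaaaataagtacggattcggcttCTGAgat

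On the strand of the gene, both boxes in these exact letters were present in 17 of the 28 hosted SNORD genes (60.7%) and in 66.9% of the 275 SNORD genes listed, and in 0 of 275 windows of the same length 500 bases upstream. SNORD80 had 246, 273 and 323 counts in the DMSO, 50 nM and 100 nM libraries, SNORD44 had 143, 141 and 177, SNORD31 had 224, 230 and 277, and SNORD50B had 72, 100 and 85. The 100 nM library was the highest of the 3 for SNORD80, SNORD44 and SNORD31.

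The hosts were abundant RNAs in Molm13 cells. With DMSO their levels, in counts per kilobase of counted exon and per 1000000 scaled counts, ran from 25.2 for EPB41L4A-AS1 to 566 for SNHG6, with a median of 146, and the median of all genes tested was 9.16. Even EPB41L4A-AS1 lay above 74.6% of the genes tested. The order with DMSO was SNHG6 (566), GAS5 (292), SNHG1 (239), ZFAS1 (204), SNHG5 (162), SNHG8 (130), SNHG15 (78.1), SNHG12 (54.2), SNHG16 (31.6) and EPB41L4A-AS1 (25.2), and no neighbours in it had overlapping 95% Poisson intervals of the count. SNHG8 changed its place in this order. At 50 nM its level was 160, with an interval that overlapped that of SNHG5, also at 160, and at 100 nM it was 187 and above SNHG5 at 162. At 100 nM the interval of EPB41L4A-AS1, at 31.2, overlapped that of SNHG16, at 33.7. Together the 10 genes took 0.128% of all counts with DMSO (95% Wilson interval 0.127% to 0.130%). The share was 0.138% in the 50 nM library, with an interval of 0.136% to 0.139%, and 0.147% in the 100 nM library, with an interval of 0.145% to 0.148%.

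**Figure D1:**
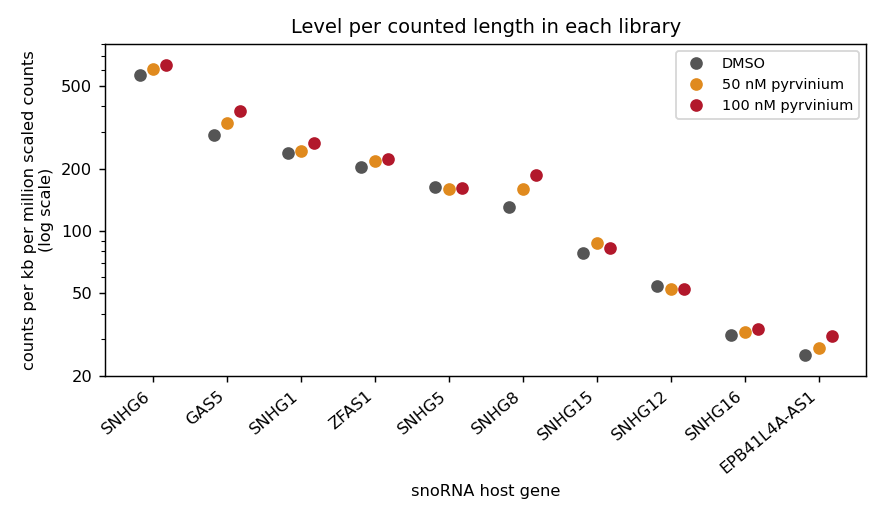
Level of each host gene in the DMSO, 50 nM and 100 nM libraries, in counts per kilobase per 1000000 scaled counts on a log axis, 1 point per library. SNHG6 is highest throughout, and SNHG8 moves from 130 to 187, past SNHG5.

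The comparison of 100 nM with DMSO asked whether these RNAs accumulate when cells are exposed to pyrvinium. Differences are log2 ratios of counts scaled by library size, with 0.5 counts added and a 95% Clopper-Pearson interval. The interval lay above no change for 7 of the 10 genes and below for 0, beside 23.8% of all genes tested above and 25.5% below. Among the 5235 genes with mean counts in the range of the 10 hosts, where intervals are as narrow, 27.6% lay above and 36.9% below. Of 18 other long noncoding genes in that range of counts, 12 (66.7%) lay above and 2 (11.1%) below. At least 25% higher were 8 of these 18 (44.4%). At least 1.5-fold higher with an interval that excluded no change were 0 of the 10, beside 4.95% of all genes, and at least 25% higher were 2, SNHG8 and GAS5, beside 11.4%. At least 1.5-fold lower were 0 of the 10, beside 2.73%. The median difference of the 10 genes was 0.14, and that of all genes was -0.0042.

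SNHG8, host of a single H/ACA snoRNA, had 1863 counts with DMSO, 2240 at 50 nM and 2790 at 100 nM. Each dose was above the one before, and the log2 difference between 100 nM and DMSO was 0.52 (0.44 to 0.61). Of all genes tested, 9.05% had a larger one.

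GAS5, a host whose spliced RNA has long served as a gauge of translation-coupled decay and which also binds the glucocorticoid receptor, had 4271, 4773 and 5763 counts in the same order. Its difference at 100 nM was 0.37 (0.32 to 0.43), and 14.4% of all genes had a larger one. EPB41L4A-AS1, an antisense host named for its neighbour, had 697, 741 and 898 counts and a difference of 0.31 (0.16 to 0.45). In these 3 genes the 100 nM library was highest and the DMSO library lowest.

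The intervals of 4 other hosts also lay above no change, with smaller differences. SNHG6, on chromosome 8, had 6185, 6485 and 7177 counts and differed by 0.16 (0.11 to 0.21) at 100 nM. SNHG1, host of 8 SNORD genes, had 6189, 6158 and 7140 counts and differed by 0.15 (0.10 to 0.20), with the DMSO and 50 nM libraries close to each other. ZFAS1, which lies head to head with ZNFX1, had 4249, 4446 and 4843 counts and differed by 0.13 (0.07 to 0.19). SNHG16, the longest of the 10 with 2765 counted bases, had 2023, 2044 and 2245 counts, and the lower end of its interval only just cleared no change, at 0.09 (0.00 to 0.18).

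The intervals of the other 3 hosts spanned no change at 100 nM. SNHG15 had 1451, 1587 and 1606 counts and differed by 0.09 (-0.02 to 0.19). SNHG5 had 1905, 1838 and 1983 counts and differed by -0.00 (-0.09 to 0.09). SNHG12 had 927, 876 and 935 counts and differed by -0.05 (-0.18 to 0.09). The upper ends for SNHG5 and SNHG12 lie below the lower ends of SNHG8, GAS5 and EPB41L4A-AS1.

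**Figure D2:**
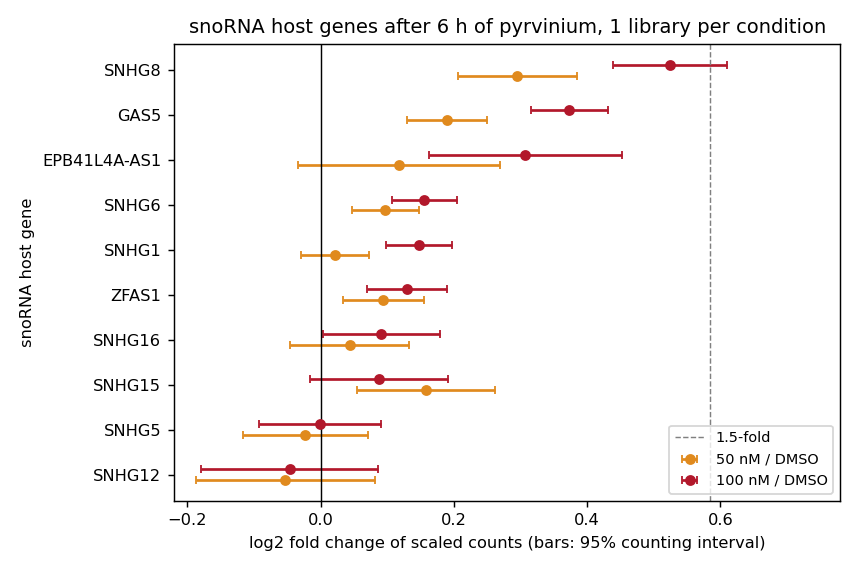
Log2 ratio of scaled counts at 50 nM and 100 nM pyrvinium to DMSO for the 10 host genes, 1 library per condition, with bars for the 95% counting interval. SNHG8 reaches 0.52 at 100 nM and stays left of the 1.5-fold line, and the bars of SNHG5 and SNHG12 span 0 at both doses.

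At 50 nM, with the same DMSO library as the reference, the interval lay above no change for 5 genes, beside 17.9% of all genes tested, and below for 0, beside 19.2%. These were SNHG8 at 0.29 (0.21 to 0.38), GAS5 at 0.19 (0.13 to 0.25), SNHG15 at 0.16 (0.05 to 0.26), SNHG6 at 0.10 (0.05 to 0.15) and ZFAS1 at 0.09 (0.03 to 0.16). No host was 1.5-fold higher, beside 2.35% of all genes, or 1.5-fold lower, beside 1.41%. The median of the 10 was 0.10, and that of all genes was -0.0047. Of 18 other long noncoding genes with mean counts in the range of the hosts, 6 (33.3%) had an interval above no change and 4 below. SNHG1, at 0.02 (-0.03 to 0.07), was among the 5 whose intervals spanned no change.

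The step from 50 nM to 100 nM does not use the DMSO library. Its interval lay above no change for 5 of the 10 hosts, beside 13% of all genes, and below for 0, beside 13.8%. Among 18 other long noncoding genes with mean counts in the range of the hosts, it lay above for 11 (61.1%) and below for 1. SNHG8 differed by 0.23 (0.15 to 0.31), EPB41L4A-AS1 by 0.19 (0.05 to 0.33), GAS5 by 0.18 (0.13 to 0.24), SNHG1 by 0.13 (0.08 to 0.18) and SNHG6 by 0.06 (0.01 to 0.11). SNHG15 alone of the 10 had a lower value at 100 nM than at 50 nM, at -0.07 (-0.17 to 0.03), within counting error. No host was 1.5-fold higher in this step, beside 1.5% of all genes, or 1.5-fold lower, beside 0.901%. A linear dose term over the 3 libraries, fitted with edgeR's quasi-likelihood test on 1 residual degree of freedom, gave SNHG8 an adjusted p of 6.8e-05, GAS5 0.00077 and EPB41L4A-AS1 0.029, with adjustment over all genes. These 3 of 10 stood beside 20.6% of all genes at an adjusted p of at most 0.05 in the same fit. For SNHG12 and SNHG5 the adjusted p of this test was 0.76 and 0.99.

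The snoRNAs in the introns of the 10 hosts were counted apart from the exons. Their summed counts were 2710 with DMSO, 2874 at 50 nM and 3408 at 100 nM, and the log2 difference at 100 nM was 0.27 (0.20 to 0.35). The other 140 snoRNA genes tested, summed in the same way, differed by 0.21 (0.16 to 0.26), an interval that overlaps that of the hosted ones. For GAS5 the sum over 10 snoRNAs was 948, 1052 and 1279 counts and the difference was 0.37 (0.25 to 0.50), beside 0.37 for its exons. For SNHG1 the sum was 893, 925 and 1038 counts and differed by 0.16 (0.03 to 0.29), beside 0.15 for its exons. In these hosts the exons and the introns' snoRNAs had close values.

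In some other hosts they were further apart. The 4 snoRNAs of SNHG12 had 291, 255 and 366 counts and differed by 0.27 (0.05 to 0.50). Its exons differed by -0.05 (-0.18 to 0.09), and these intervals share only a narrow range. From 50 nM to 100 nM these snoRNAs differed by 0.43 (0.20 to 0.67) and the exons by 0.01 (-0.13 to 0.14). The 2 snoRNAs of SNHG5 differed by 0.55 (0.13 to 0.98) at 50 nM, beside -0.02 (-0.12 to 0.07) for its exons. At 100 nM they differed by 0.29 (-0.14 to 0.73). The snoRNA of EPB41L4A-AS1 differed by -0.28 (-1.13 to 0.56) at 100 nM, beside 0.31 for its exons. The snoRNA of SNHG6, SNORD87, had 189, 242 and 259 counts and differed by 0.39 (0.12 to 0.67), beside 0.16 for the exons. The snoRNA of SNHG8, SNORA24, had 76, 64 and 96 counts and differed by 0.28 (-0.17 to 0.73), too few counts to be set apart from either no change or the 0.52 of its exons. The libraries were made with a kit for polyadenylated RNA, which mature snoRNAs are not, and reads of a mature snoRNA and of an unspliced host cannot be told apart here.

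**Figure D3:**
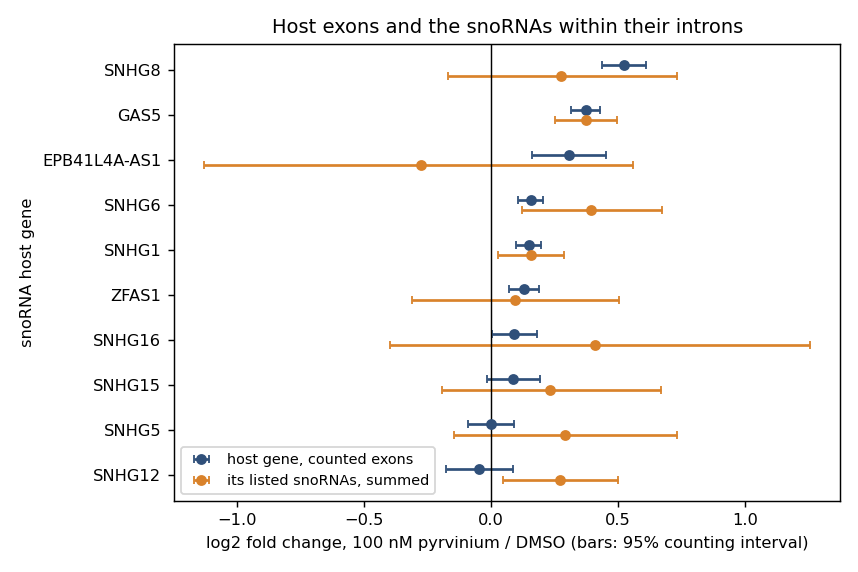
Log2 ratio of scaled counts at 100 nM pyrvinium to DMSO for the exons of each host and for the sum of its listed snoRNAs, with bars for the 95% counting interval. The pairs coincide for GAS5 at 0.37, and for SNHG12 the snoRNAs lie at 0.27 and the exons at -0.05.

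Several hosts share their start region or exon bases with other genes. SNHG1 starts 158 bases from SLC3A2, the heavy chain of amino acid transporters that include LAT1, on the opposite strand. SLC3A2 had 6224, 8896 and 10486 counts and differed by 0.69 (0.65 to 0.74) at 100 nM, and SNHG1 by 0.15. GAS5 starts 368 bases from ZBTB37, which had 92, 91 and 109 counts and differed by 0.18 (-0.23 to 0.60). ZFAS1 and ZNFX1 overlap by 42 exon bases at their starts, and ZNFX1, an RNA helicase of antiviral defence, had 1189, 1095 and 1139 counts and differed by -0.12 (-0.24 to -0.00). The neighbours of SNHG1 and ZFAS1 thus had differences apart from their hosts' in size or direction. Exon bases are also shared on opposite strands by GAS5 and GAS5-AS1 (41 bases), SNHG6 and MCMDC2 (119 bases) and SNHG12 and TRNAU1AP (8 bases), so 4 of the 10 hosts are touched. GAS5-AS1 had 4 to 7 counts, MCMDC2 16 to 38 and TRNAU1AP 339 to 374, the last beside 876 to 935 for SNHG12, and the part of shared reads in the values above was not tested.

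Other snoRNA hosts and the machinery around them were taken from lists written from general knowledge. Of 17 other noncoding hosts listed, 13 were tested, and at 100 nM the interval lay above no change for 6 and below for 1, with a median of 0.24. SNHG3, host of the U17 snoRNAs, had 2258, 2613 and 3253 counts and differed by 0.47 (0.39 to 0.55), and SNHG21 had 91, 131 and 129 counts and differed by 0.44 (0.05 to 0.85). SNHG7 differed by -0.07 (-0.16 to 0.02) and DANCR by -0.04 (-0.12 to 0.03). SNHG9 was the 1 gene past 1.5-fold, lower, with 79, 57 and 50 counts, and is named because of its value, outside the rule for named genes. Of the 492 long noncoding genes tested, 28.5% had an interval above no change and 14.8% were past 1.5-fold higher, with a median of 0.22. Among 18 other long noncoding genes with mean counts in the range of the 10 hosts, 12 (66.7%) had an interval above no change and 8 (44.4%) were at least 25% higher, with a median of 0.22. The 10 hosts stood at 7 and 2 of 10 by these rules, with a median of 0.14, and the difference between the lists was not tested.

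Coding genes host most of the other snoRNAs. All 26 ribosomal protein genes with intronic snoRNAs were tested, and the interval at 100 nM lay above no change for 18 and below for 2, with a median of 0.07. RPL12 had the largest, 0.31 (0.26 to 0.35), followed by RPL3 at 0.18 (0.17 to 0.20), while RPL23A was at -0.07 (-0.12 to -0.03) and RPL7 at -0.07 (-0.10 to -0.03). At 50 nM the interval of the ribosomal protein hosts lay above no change for 22 and below for 2. Their median was then 0.11, beside 0.10 for the 10 noncoding hosts. From 50 nM to 100 nM the ribosomal protein hosts had intervals above no change in 4 cases and below in 16. The 10 noncoding hosts had 5 and 0. The medians of this step were -0.04 and 0.05. Many ribosomal protein hosts had higher counts than the 10 hosts, so smaller differences could clear no change there. The 18 other long noncoding genes in the range of counts of the 10 hosts had 11 and 1 in this step. Of the 24 other coding hosts 16 lay above and 4 below, with a median of 0.09. They included EIF4A2, a helicase of translation initiation, at 0.52 (0.48 to 0.55), TAF1D, a subunit of the RNA polymerase I selectivity factor, at 0.51 (0.43 to 0.59), TCP1, a chaperonin subunit, at -0.41 (-0.44 to -0.38), and HSPA8, the constitutive HSP70 chaperone, at -0.76 (-0.77 to -0.74). HSPA8 was past 1.5-fold lower, and 0 of these coding hosts were past 1.5-fold higher.

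Of 20 other TOP mRNAs of the translation machinery, 13 lay above no change and 2 below, with a median of 0.11. EEF2, the translocase of elongation and also a snoRNA host, differed by 0.35 (0.34 to 0.36) and PABPC1, the poly(A) binding protein, by 0.27 (0.26 to 0.28), while FAU was at -0.09 (-0.14 to -0.04).

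Among 24 NMD factors the interval lay above no change for 7 and below for 8, with a median of 0.02. SMG9, a partner of the SMG1 kinase, differed by 0.41 (0.33 to 0.50) and UPF3A by 0.30 (0.20 to 0.41), whereas UPF3B was at -0.28 (-0.42 to -0.15). Of 16 tested coding genes known as NMD targets, 9 lay above and 5 below, with a median of 0.06. The 2 with the largest differences were the stress transcription factors DDIT3, with 236, 319 and 500 counts and a difference of 1.02, with 0.80 as the lower end of its interval, and ATF3, with 213, 221 and 349 counts and a difference of 0.65 (0.40 to 0.91). Both are also known targets of the integrated stress response. The splicing factor SRSF2 was at -0.21 (-0.25 to -0.18) and UPF2 at -0.20 (-0.26 to -0.13). Of 18 proteins and assembly factors of snoRNA particles, 4 lay above and 5 below, with a median of -0.06, and NOP10, of the H/ACA core, differed by -0.44 (-0.52 to -0.35) and SNU13, which binds box C/D RNAs, by -0.32 (-0.39 to -0.25), while ZNHIT6 was at 0.26 (0.17 to 0.36) and DKC1, the pseudouridine synthase, at 0.21 (0.16 to 0.26).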

How the data were processed

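Molm13 cells received DMSO, 50 nM or 100 nM pyrvinium for 6 h before RNA sequencing, 1 library each, and the sample titles gave the groups. Per the methods, libraries came from a stranded mRNA kit and were read in pairs. Reads were mapped to hg19 by the authors using Rsubread, and the deposited values are raw counts for each gene. The strand setting of the counting is not given in the sources used here. A further deposited table holds the authors' comparisons and 4 columns of per-condition values, and none of it was used.

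TMM scaling was done in edgeR 4.0.16 (R 4.3.3). A gene was tested if any library had 10 counts or more, which kept 12879 of 25702, and 23696 identifiers matched a RefSeq symbol. Log2 ratios had 0.5 counts added, and a gene was past the fold when it differed at least 1.5-fold and its 95% Clopper-Pearson interval (scipy 1.17.1) excluded no change. Reads are not independent molecules, and intervals cover counting error only. The 3-count limit for a gene at 0 is 1.25e-05% to 1.32e-05% of a library. With 1 library per condition no spread between replicates could be measured, and calls between conditions rest on the fold and the counting interval, with p-values only in the alternatives. The edgeR dose term, with Benjamini-Hochberg adjustment over all genes tested, is an alternative. Its only residual is the departure of the 3 libraries from a straight line over dose, so its p-values do not measure spread between cultures.

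The 10 members and all lists were chosen with earlier results of these data known. Named genes are the 10 members, their snoRNAs and divergent neighbours within 2 kb, the 2 largest differences in each direction of every other list where a library reached 100 counts, and the 5 genes nearest the members' medians. Some items that this rule names are not reported here. The scripts were tested on simulated data. As alternatives, libraries were scaled by DESeq2 1.42.0, by totals or by TMM lacking mitochondrial genes, the count filter, added counts (5) and fold threshold (25% higher, 2-fold) were changed, edgeR's exact test was run at assumed coefficients of variation of 0.1 and 0.2, and other background genes were used.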

Additional observations from a re-analysis of the deposited data

How the results depend on the processing

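With 1 library per condition no replicate could be left out, and the assumed spread of the exact test replaces a measured one. No paired analysis was possible because the labels give no replicate numbers that groups share. Each of the 10 hosts kept its log2 ratio within its counting interval under the other scalings, filters and added counts, and the largest shift from a scaling was 0.0032 log2 units. The number of hosts past the fold at 100 nM, 0 at 1.5-fold, was 2 at a threshold of 25% higher and 3 by the edgeR dose term, because those rules ask for a smaller difference or none. With edgeR's exact test at an assumed coefficient of variation of 0.1 it was 0, beside 1.37% of all genes. The background depended on the genes chosen: 4.95% of all genes were past 1.5-fold higher at 100 nM, 14.8% of long noncoding genes, and 1.30% of genes with mean counts in the range of the 10 hosts, a comparison chosen after seeing the data, like that with 18 other long noncoding genes.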

Other observations

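The genes whose pair of differences at 50 nM and 100 nM lay nearest the medians of the 10 hosts were TMEM143, RNF130, CLEC16A, MGAT2 and ZFP91, all protein-coding, by Euclidean distance over the 2 doses. MGAT2, an enzyme of N-glycan synthesis, had 2566, 2684 and 2935 counts with DMSO, 50 nM and 100 nM. RNF130, a ubiquitin ligase, had 2053, 2146 and 2358 counts in that order. Of 9777 genes with at least 100 counts in every library, 1458 (14.9%) lay within 0.1 of those medians, and so did 5 of the 10 hosts. The hosts themselves set these medians, so their share cannot be compared with that of the other genes.

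Across the 10 hosts, as a description over genes that share the same libraries, the difference at 100 nM had a Spearman coefficient of 0.30 with the DMSO level per length, -0.09 with the counted length and -0.28 with the number of exons.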
